A study of Mus musculus with 37 samples.

Results

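MHC class II high macrophages of the injured mouse heart were taken from 2 single-cell RNA-Seq libraries of cardiac nonmyocytes, collected 7 days after myocardial infarction. Macrophages were barcodes in which C1qa, C1qb and C1qc, the chains of complement C1q, made up at least 0.3% of the counts, the fibroblast genes Col1a1, Col1a2, Col3a1 and Dcn made up less than 0.5%, and a short list of genes that included Ccl24 and Slpi had fewer than 3 counts. These 3579 macrophages from both libraries were ranked together by the share of their counts from H2-Aa, H2-Ab1, H2-Eb1 and Cd74, and the top 25% were taken, 895 macrophages of 12807 barcodes in all. The control library, labelled wild type, held 403 of them, and the ENPP1CKO library held 492. Because the class II share chose these cells, their class II levels, and every difference from the macrophages below the threshold, are given as descriptions with no test.

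Both libraries came from C57BL/6 mice. In ENPP1CKO mice, both alleles of Enpp1, which encodes an ectonucleotidase that hydrolyzes extracellular ATP, were floxed and a tamoxifen-inducible Cre under Col1a2 regulatory sequence was present. Tamoxifen was given from before the injury until day 7. The paper's main text does not say whether the control mice received tamoxifen or carried the Cre. The driver is active in collagen-producing cells, so the deletion was aimed at fibroblasts and not at the macrophages described here. Each genotype was 1 library, and the number of hearts pooled in it and the age of the mice were not given in the sources used here. Differences between the libraries therefore carry limits for counting error only. Such limits treat each count as independent and do not cover variation between animals or between cells. Genotype cannot be told apart from anything else that differed between the libraries. In barcodes rich in collagen transcripts, Enpp1 was at 118.7 CPM (counts per 1000000 counts) in the control library (95% exact Poisson limits, 112.6 to 124.9) and 28.8 CPM in the ENPP1CKO library (26.3 to 31.4). The MHC class II high macrophages had 15 and 8 Enpp1 counts.

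MHC class II molecules present peptides from engulfed proteins to CD4+ T cells. H2-Aa pairs with H2-Ab1, and H2-Eb1 encodes another class II beta chain. The invariant chain Cd74 guides class II pairs to endosomes, and H2-DM exchanges the invariant chain fragment for peptide. The coactivator CIITA switches the genes on, in macrophages chiefly after interferon gamma. In the heart, macrophages that express CCR2 are replenished from blood monocytes, and much of the resident pool is marked by genes such as Lyve1, Timd4 and Folr2.

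Class II promoters share the X and Y boxes, to which the proteins that recruit CIITA bind. The 130 bases upstream of the RefSeq start of a pair of genes from the rule and a pair of H2-DM genes that were not in it are shown 5' to 3' on the gene's strand (GRCm38.p6), because all 4 genes were higher in the chosen cells than in the other macrophages of both libraries. Capitals mark GATTGG, a core of the Y box, and AACNGATG, a core of the X box, and in H2-Eb1 also GATTGG on the other strand, written CCAATC. H2-Aa lies on the minus strand at chr17:34287824-34287953, and H2-Eb1, H2-DMb1 and H2-DMb2 lie on the plus strand at chr17:34305737-34305866, chr17:34153061-34153190 and chr17:34145119-34145248.
H2-Aa: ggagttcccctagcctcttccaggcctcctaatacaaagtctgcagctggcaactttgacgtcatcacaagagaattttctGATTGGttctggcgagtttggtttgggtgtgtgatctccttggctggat
H2-Eb1: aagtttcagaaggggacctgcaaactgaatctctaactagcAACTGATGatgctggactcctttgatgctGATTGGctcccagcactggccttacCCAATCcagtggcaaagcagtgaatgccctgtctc
H2-DMb1: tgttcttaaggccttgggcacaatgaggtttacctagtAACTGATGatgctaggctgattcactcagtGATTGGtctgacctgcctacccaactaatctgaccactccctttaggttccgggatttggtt
H2-DMb2: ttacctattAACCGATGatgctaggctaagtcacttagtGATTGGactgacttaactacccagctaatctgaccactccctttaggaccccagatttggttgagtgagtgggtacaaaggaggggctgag
GATTGG started 49, 60, 62 and 91 bases before the start of H2-Aa, H2-Eb1, H2-DMb1 and H2-DMb2. AACNGATG started 89, 92 and 121 bases before the start of H2-Eb1, H2-DMb1 and H2-DMb2, upstream of the Y box core in each. In the first RefSeq window of 8 class II genes, 7 had GATTGG on the gene's strand within 250 bases and 4 had AACNGATG, and the remaining gene, H2-DMa, had GATTGG in its second window. On either strand, GATTGG occurred in 14.6% of all 32851 RefSeq windows of that length and AACNGATG in 1.98%. The letters were chosen after these promoters had been read, and a match describes sequence only.

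The class II share of the chosen cells ranged from 1.74% to 16.9% of counts in the control library, with a median of 5.54%, and from 1.75% to 17.8% in the ENPP1CKO library, with a median of 5.38%. The other macrophages had medians of 0.0439% and 0.0369%, and 25% and 33.5% of them had no count of the 4 genes. The threshold did not fall in a gap of the distribution. The lowest cell inside it had 1.74% and the highest outside had 1.73%, the tenth on each side had 1.78% and 1.64%, and 146 control and 178 ENPP1CKO macrophages lay between 1% and 3% against 99 and 126 between 3% and 5%. MHC class II high cells made up 24.7% of control macrophages (exact binomial limits, 22.7% to 26.9%) and 25.2% of ENPP1CKO macrophages (23.3% to 27.2%), a difference of 0.49 percentage points. This difference depended on which barcodes were kept. With those kept that the list including Ccl24 and Slpi removed, it was 5.18 points. Without barcodes holding dendritic, B or T and NK cell counts it was 3.175 points, and with the top 50% of macrophages taken it was -1.27 points.

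**Figure D1:**
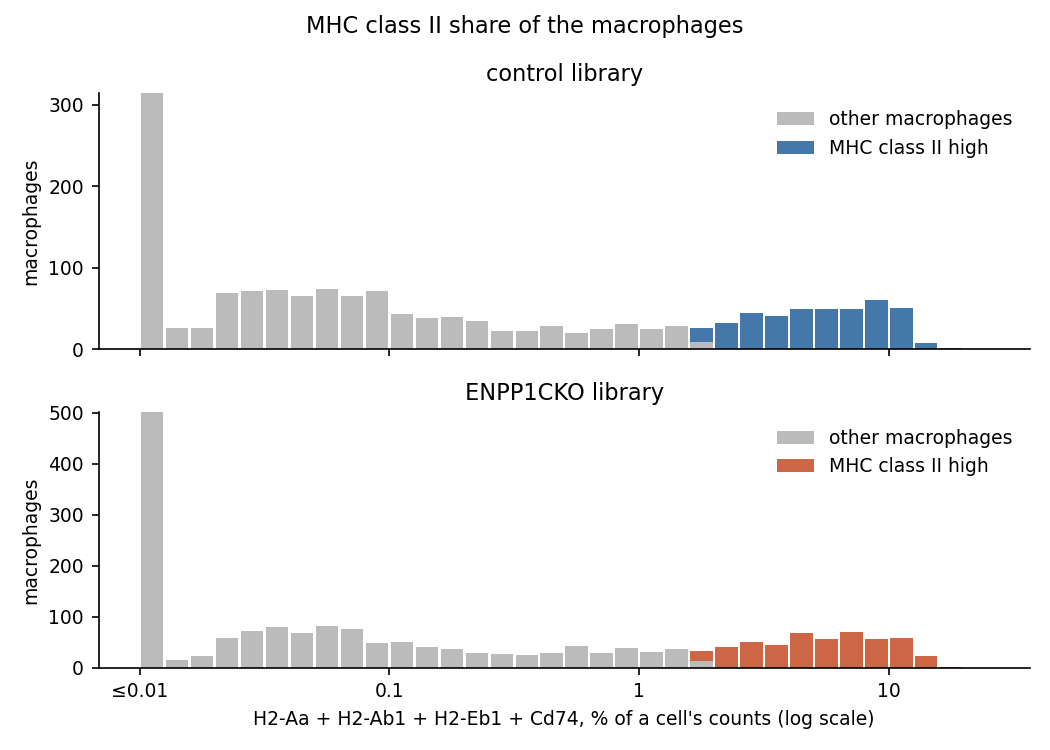
Histograms of the class II share of each macrophage (x axis, percent of the cell's counts, log scale; y axis, number of macrophages) in the control and ENPP1CKO libraries, with MHC class II high cells in color against the other macrophages. In both libraries the shares ran on across the threshold, and 324 of 3579 macrophages lay between 1% and 3%.

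The 4 genes of the rule stood at like levels in the chosen cells of the libraries, which were cut at 1 shared threshold. H2-Aa was at 10490 CPM in control and 10790 CPM in ENPP1CKO cells, H2-Ab1 at 10080 and 9655 CPM, H2-Eb1 at 7068 and 7536 CPM, and Cd74 at 32240 and 32960 CPM. The largest log2 ratio of ENPP1CKO to control among them was 0.09, for H2-Eb1. Median depth was 3713 and 3689 counts in the chosen cells and the other macrophages of the control library and 3312 and 3308.5 counts in those of the ENPP1CKO library, although fewer of the chosen control cells were shallow, with 6 under 1000 counts against 72 of the other macrophages. The median C1q share was 1.66% in control and 1.76% in ENPP1CKO MHC class II high cells, well above the 0.3% that the rule asked for.

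Against the other macrophages of the same library, 40 of 8808 genes with at least 50 counts were more than 2-fold higher in both libraries (0.454%) and 117 were more than 2-fold lower (1.33%). The cells were split by expression, so these counts and shares describe the split and nothing is read from them. The median log2 ratio of all compared genes was -0.15 in control and -0.14 in ENPP1CKO. By sign alone, 18.0% of them were higher and 48.0% lower in both libraries, which is the background for the list counts below. The 14 genes of the rule were left out.

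Class II loading genes that the rule did not use were among the highest ratios. H2-DMb1, the beta chain of the peptide exchange factor, was at 582.9 CPM in control MHC class II high cells against 60.1 CPM in the other macrophages (log2 ratio 3.28), and at 613.9 against 76.1 CPM in ENPP1CKO cells (3.01). Its partner chain H2-DMa was at 642.9 against 88.7 CPM (2.86) and 590.2 against 118.1 CPM (2.32). Ciita, the class II coactivator, was at 24.2 against 1.46 CPM (4.05) and 18.4 against 1.17 CPM (3.97), from 38 and 31 counts in the chosen cells. Thinned to 1000 counts per cell, H2-DMa was detected in 45.3% of control and 41.3% of ENPP1CKO MHC class II high cells against 8.75% and 11.8% of the other macrophages, and in 1.13% and 0.578% of collagen-rich barcodes, which served as a background and had median depths of 5239 and 4093 counts. Without thinning it was detected in 81.1% and 74.2% of the MHC class II high cells. Loading genes did not move as 1 block. Of 9 in the list with enough counts, 4 were higher and 3 lower in both libraries, with medians of 0.07 and 0.06, which became 1.06 and 0.99 when genes with 1 count or more were compared. The proteases that trim the invariant chain stood apart from H2-DM: Ctss had log2 ratios of -0.12 and -0.01 and Lgmn of -0.28 and -0.36.

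**Figure D2:**
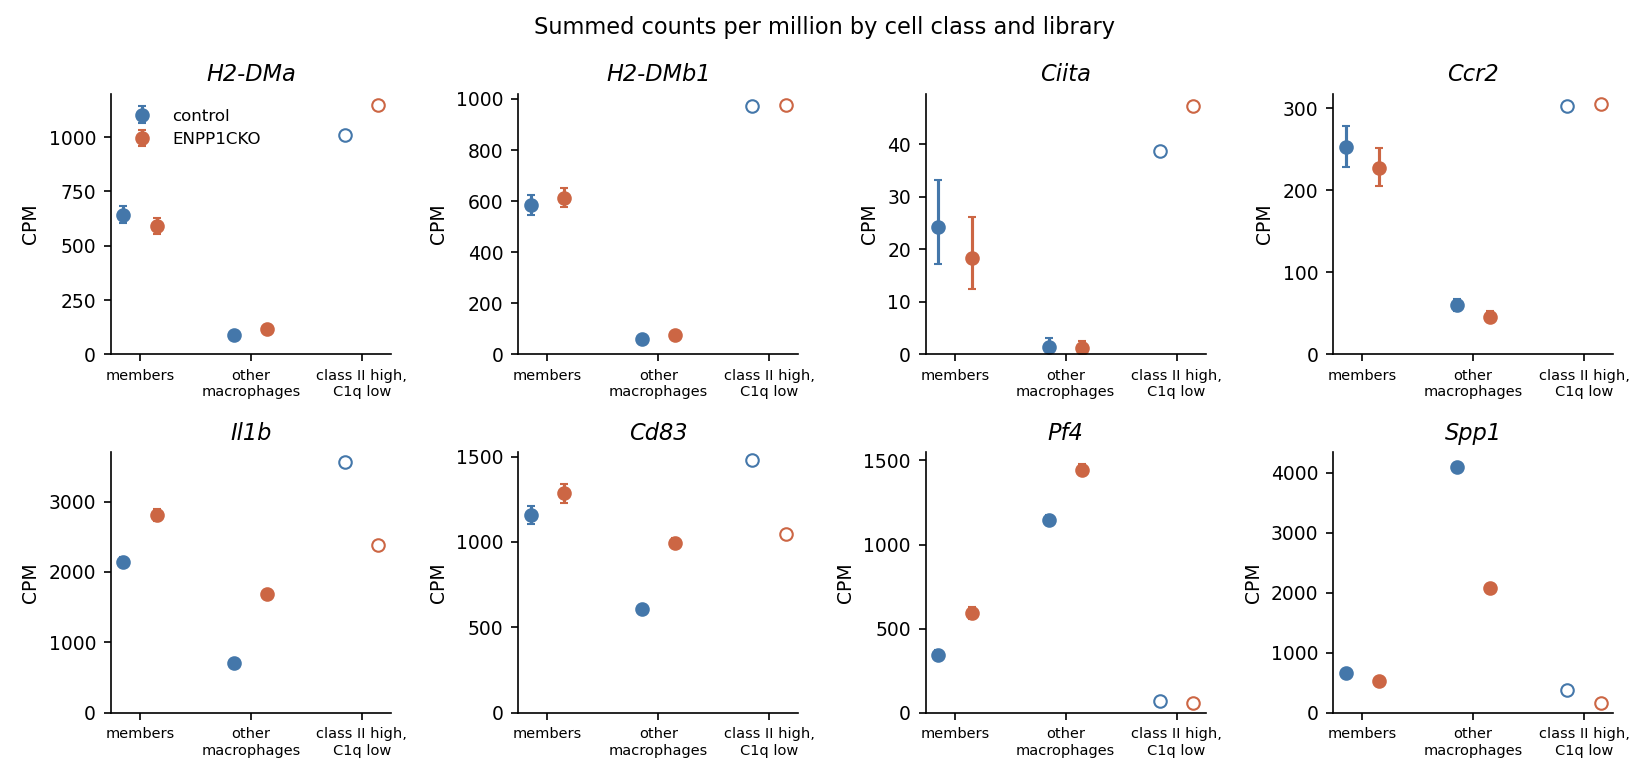
Summed CPM (y axes, linear) of 8 genes in MHC class II high macrophages, other macrophages and barcodes high in class II but low in C1q, for the control and ENPP1CKO libraries, with 95% Poisson counting limits on filled points and none drawn on open points. H2-DMa, H2-DMb1, Ciita, Ccr2, Il1b and Cd83 were higher in the MHC class II high than in the other macrophages of both libraries, and Pf4 and Spp1 were lower.

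Costimulatory and inflammatory genes were higher with smaller ratios, and for Il1b, Cd83 and Cd86 the ratio was larger in the control library. Il1b, which encodes the cytokine IL-1 beta, was at 2146 CPM in control and 2808 CPM in ENPP1CKO MHC class II high cells against 709.2 and 1681 CPM in the other macrophages (log2 ratios 1.60 and 0.74). Cd83, a surface protein that stabilizes class II, was at 1156 and 1284 CPM against 605.8 and 995.8 CPM (0.93 and 0.37). Of 8 costimulation genes compared, 7 were higher in both libraries and 1 was lower, with medians of 0.70 and 0.37. Cd86 had ratios of 0.75 and 0.25, and Cd40, the receptor for CD40 ligand on T cells, had 0.92 and 0.98. In the inflammatory and NF-kB list, 14 of 20 genes were higher in both libraries and 0 were lower in both, with medians of 0.50 and 0.18. Among them Nlrp3, the inflammasome sensor, had 0.72 and 0.59. Such levels were not particular to the chosen cells. Il1b and Cd83 summed to 3302 and 4092 CPM in them and to 5043 and 3428 CPM in barcodes high in class II, low in C1q and without B cell markers. The costimulation list summed to 695.2 and 753.1 CPM against 941.2 and 666.7 CPM there, and the inflammatory list to 9480 and 10640 CPM against 8892 and 6922 CPM.

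A further group of myeloid genes followed. The monocyte chemokine receptor Ccr2 was at 252.6 and 227.5 CPM against 59.7 and 45.9 CPM (log2 ratios 2.08 and 2.31). The lectin genes Mgl2 (3.00 and 2.52) and Clec4b1 (2.88 and 3.22) showed larger ratios. The phospholipase B domain gene Plbd1 had 2.60 and 2.23, and the integrin Itgax, which encodes CD11c, had 1.61 and 1.21. Tnip3 and Traf1, which act in NF-kB signaling, had 1.49 and 1.31, and 1.33 and 1.55. Bcl2a1a, which has near-identical copies that may share its reads, had 1.80 and 1.66. The receptor tyrosine kinase Axl, which binds Gas6, had 1.27 and 1.00, whereas the related receptor Mertk was lower, at -1.17 and -0.88, as was Gas6 itself, at -1.55 and -1.83. The monocyte-derived list as a whole was mixed, with 4 of 10 genes higher and 3 lower in both libraries.

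Resident and lipid-handling macrophage genes were lower. Of 13 resident macrophage genes compared, 12 were lower in both libraries and 0 were higher, with medians of -1.35 and -1.40. The folate receptor Folr2 was at 14.7 and 24.9 CPM against 67.4 and 79.7 CPM (log2 ratios -2.20 and -1.68), and the chemokine Pf4 at 345.7 and 591.3 CPM against 1145 and 1446 CPM (-1.73 and -1.29). Cd5l, a scavenger receptor family protein, had -4.03 and -3.86, with 3 and 2 counts left in the chosen cells. Of 15 lipid and scavenging genes, 14 were lower in both libraries. Spp1, which encodes osteopontin, was at 665.2 and 521.4 CPM against 4090 and 2087 CPM (-2.62 and -2.0), and Gpnmb (-1.73 and -2.11), the lysosomal protease Ctsd (-1.61 and -1.55) and the fatty acid carrier Fabp5 (-1.74 and -1.26) were lower too. The iron exporter Slc40a1 had -3.05 and -2.58, and Igf1, a growth factor of repair macrophages, had -1.26 and -1.16.

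**Figure D3:**
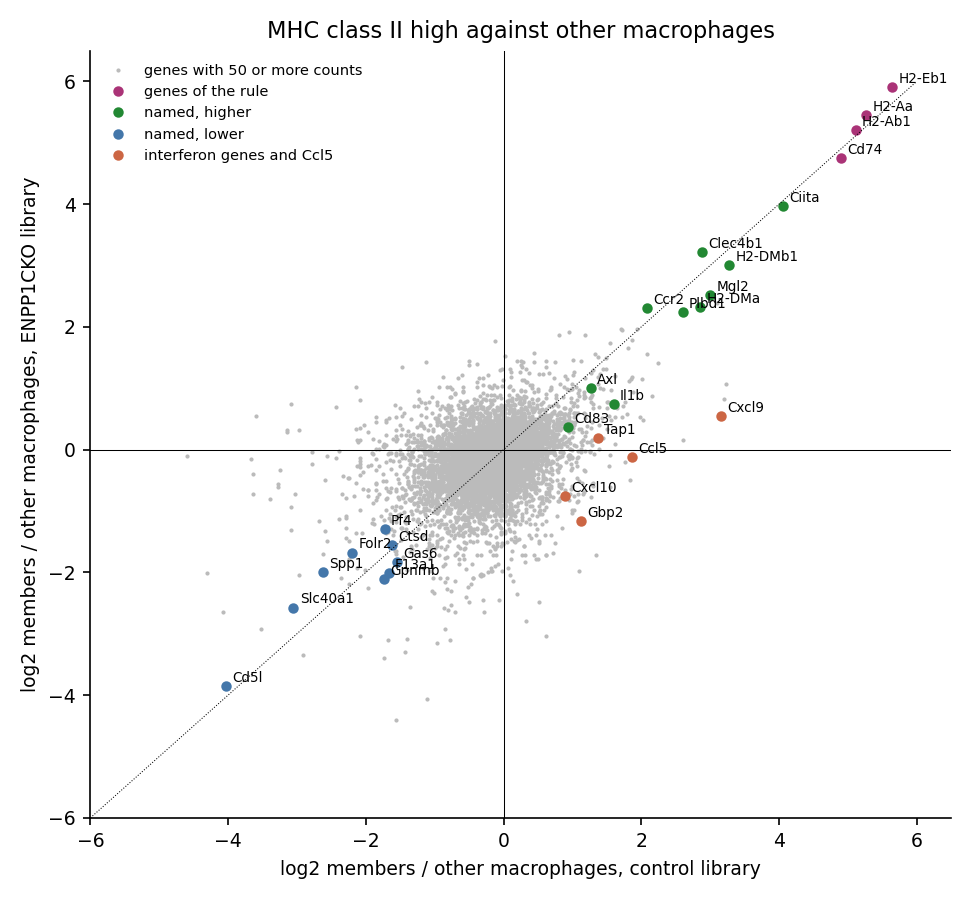
Log2 ratio of CPM in MHC class II high over other macrophages in the control library (x axis) and the ENPP1CKO library (y axis), 1 point per gene with at least 50 counts, with the rule's genes and named higher and lower genes in color. H2-DMb1, at 3.28 and 3.01, and Folr2, at -2.20 and -1.68, are examples on the same side of 0 in both libraries. Some genes named in the text, such as Gbp2 at 1.12 and -1.16, fell on opposite sides.

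Within the chosen cells several of these genes were graded with the class II share. Ciita was at 17.9, 15.9 and 39.6 CPM in control and at 13.9, 8.82 and 33.1 CPM in ENPP1CKO cells of the groups described next. It was thus highest in the last group but lower in the middle than in the first, from 5 to 20 counts per group. Mgl2 had the same order in control, at 30.4, 21.9 and 79.1 CPM, and rose through the groups in ENPP1CKO cells, at 17.4, 21.2 and 170.9 CPM. Across the low, middle and high groups of MHC class II high cells by share, which held 126 to 172 cells each, H2-DMb1 was at 375.7, 472.9 and 921.5 CPM in control and 282.8, 544.9 and 1036 CPM in ENPP1CKO cells. Ccr2 was at 164.6, 212.6 and 389.6 CPM and at 119.7, 183.4 and 387.6 CPM. Pf4 ran the other way, at 531, 292 and 194 CPM in control and 1071, 467 and 213 CPM in ENPP1CKO cells. Below the threshold the same order held, since Ccr2 was at 40.5 and 28.4 CPM in the macrophages under the median share and at 104.3 and 83.0 CPM in those between the median and the threshold. Counts of single genes in a cell were sparse. After thinning, Pf4 was detected in 15.4% of control MHC class II high cells with a Ccr2 count and 21.6% of those without one, and in 20.9% and 31.5% of ENPP1CKO cells. Cd83 was detected in 63.9% of control cells with an Il1b count and 42.1% of those without, and in 73.8% and 36.2% of ENPP1CKO cells. Cells of 1 library are not replicates, so these values are descriptions.

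**Figure D4:**
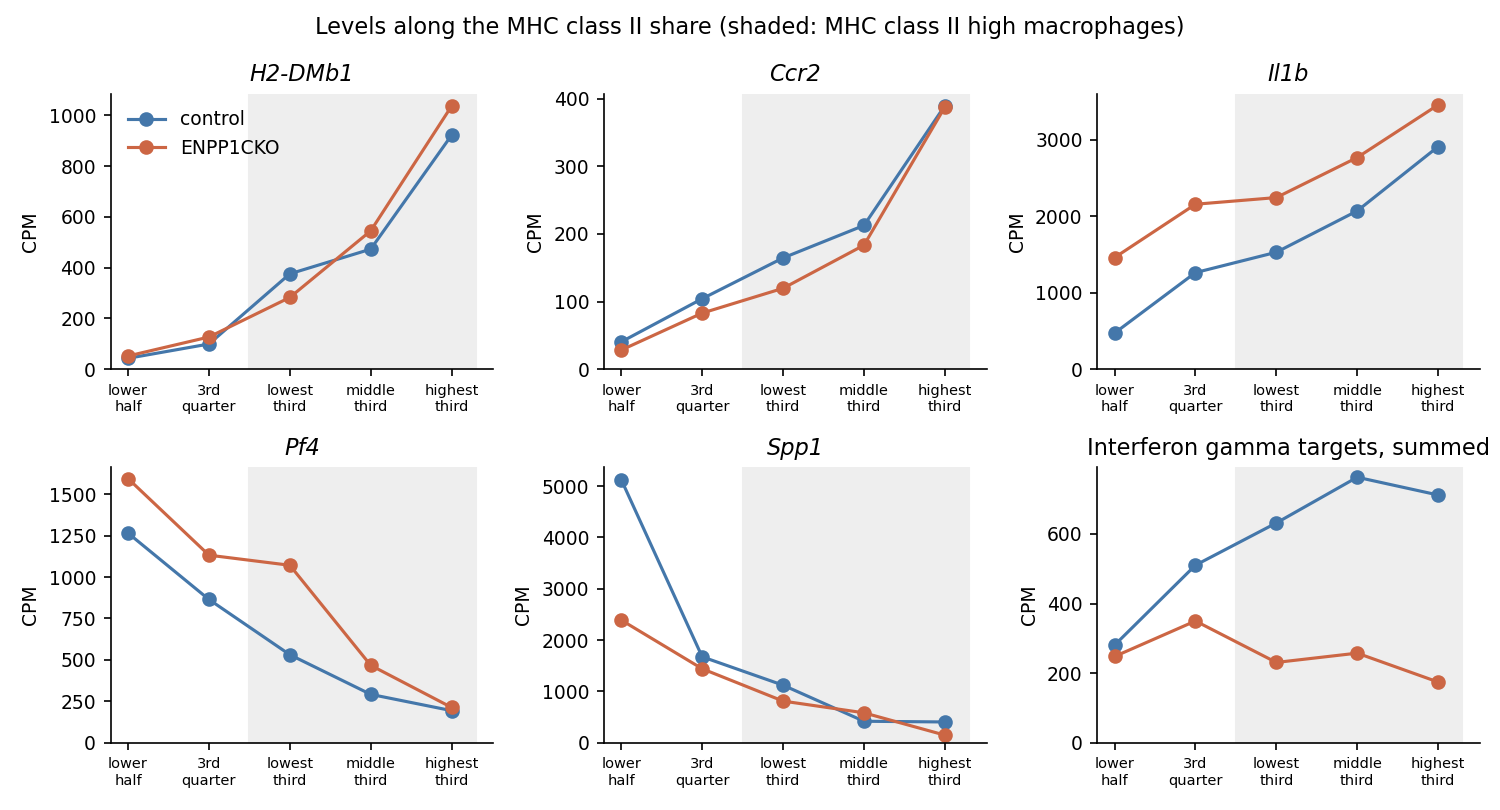
Summed CPM (y axes, linear) of H2-DMb1, Ccr2, Il1b, Pf4, Spp1 and the summed interferon gamma targets over groups of macrophages ordered by class II share (x axis), with the MHC class II high cells shaded, for the control and ENPP1CKO libraries. H2-DMb1, Ccr2 and Il1b were highest and Pf4 and Spp1 lowest in the group of highest share in both libraries, while the interferon gamma targets were above 600 CPM in the shaded groups of the control library alone.

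Markers of dendritic cells and lymphocytes were checked, since both also express class II. The dendritic cell list did not hold Mgl2, Clec4b1, Plbd1 or Itgax, which were higher in the chosen cells, so its sum does not cover them. The summed dendritic cell list was at 39.5 and 46.2 CPM in control and ENPP1CKO MHC class II high macrophages, against 1350 and 848 CPM in the 144 and 114 barcodes that were high in class II, low in C1q and without B cell markers. In the other macrophages the sum was lower, at 15.9 and 28.3 CPM, and Batf3, a transcription factor of dendritic cells, had log2 ratios of 1.5 and 0.77 in the chosen cells over the other macrophages. Among defining genes, Cd209a was at 0.64 and 2.37 CPM against 360 and 253.1 CPM there, and Ccr7 at 1.91 and 2.37 CPM against 540.8 and 189.3 CPM. Of the B cell genes, Pax5 had 0 counts, which allows up to 1.91 and 1.78 CPM, and Cd79a had 2 and 0 counts. The B and plasma cell list summed to 253.8 and 294.5 CPM, including Igkc at 17.2 and 68.7 CPM, against 15 and 72.2 CPM in the other macrophages. Ighm was at 214.9 and 192 CPM, against 82.0 and 118.7 CPM in the other macrophages. The T and NK cell list summed to 4.46 and 11.26 CPM, from 7 and 19 counts, against 13.14 and 18.15 CPM in the other macrophages. At least 2 counts of the dendritic, B or T and NK cell lists were present in 30.5% and 29.5% of the chosen cells and in 11.4% and 21.7% of the other macrophages. When barcodes with such counts were left out, the log2 ratio of ENPP1CKO to control cells, described below, went from -3.32 to -2.52 for Cxcl9, from -2.21 to -1.76 for Cxcl10 and from -2.57 to -3.30 for Plac8. The libraries shared 68 barcode sequences, 0 of them among the MHC class II high cells.

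The comparison of ENPP1CKO with control cells asked whether the MHC class II high macrophages differed between control hearts and hearts in which Enpp1 was deleted in cells expressing Col1a2. Interferon gamma targets were lower in the ENPP1CKO library. The class II genes of the rule are left out of the counts, since 1 threshold on them chose the cells of both libraries. Of 5028 genes with at least 50 counts, 23 were more than 2-fold higher (0.457%) and 57 more than 2-fold lower (1.13%) in the ENPP1CKO cells, and the median log2 ratio was -0.05. By sign alone, 43.8% of the genes compared were higher and 56.2% lower, which is the background for the list counts that follow. The minimum was set on the MHC class II high cells of both libraries together. A gene could thus pass it through the library where it was high, which affects the number lower and the median of a list.

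Of 14 interferon gamma targets, 8 had enough counts to be compared. Among them, Cxcl9, Gbp2 and Cxcl10 would have passed on their control counts alone. All 8 were lower in ENPP1CKO MHC class II high cells, 5 of them by more than 2-fold. Their median log2 ratio was -1.50, against -0.32 in the other macrophages. With a minimum of 1 count the median of the list was -1.51. The counting limits of 6 of the 8 lay below 0, against 511 of all 5028 genes compared. The median of the 8 was -0.75 with the top 50% of macrophages taken and -2.55 with thinned cells. Cxcl9, a chemokine that attracts activated T cells, was at 159.4 CPM in control and 16.0 CPM in ENPP1CKO cells (log2 ratio -3.32, limits -3.95 to -2.74). In the other macrophages the Cxcl9 ratio was -0.71. Its control level rested on few cells, since 215 of 250 counts came from 10 cells, and 26 of 27 ENPP1CKO counts also came from 10 cells. Without the 10 highest cells of each library 35 and 1 counts remained, and Cxcl9 in the control MHC class II high cells was 0.36 above the other macrophages on the log2 scale, in place of 3.15. The guanylate-binding protein Gbp2 was at 72.1 and 11.3 CPM (-2.68, limits -3.46 to -1.97), with 73 of 113 control counts in 10 cells, and had -0.40 in the other macrophages. Cxcl10, which shares its receptor with Cxcl9, was at 162 and 35 CPM (-2.21, limits -2.65 to -1.80), with 207 of 254 control counts in 10 cells, and had -0.55 in the other macrophages. Without the 10 cells of each library highest in Cxcl9, Gbp2 had -1.82 and Cxcl10 -1.52. Irf1, at -0.45, had limits that included 0 (-0.94 to 0.04).

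The libraries differed more in the MHC class II high cells than in the other macrophages for several of these targets. The difference between the 2 log2 ratios was -2.60 for Cxcl9 (limits -3.35 to -1.85), -2.28 for Gbp2 (-3.06 to -1.50) and -1.66 for Cxcl10 (-2.12 to -1.20). Since these limits treat each count as independent and most control counts lay in 10 cells, they are too narrow. Without barcodes holding dendritic, B or T and NK cell counts, these differences were -1.21, -1.43 and -1.15. Without the 10 cells of each library highest in Cxcl9, that of Gbp2 was -1.42 and that of Cxcl10 -0.97. Summed over the list, the targets were at 699.6 and 221.6 CPM in the MHC class II high cells, 349.4 and 280.5 CPM in the other macrophages and 401.3 and 315.5 CPM in collagen-rich barcodes. In the barcodes high in class II but low in C1q, without B cell markers, they were at 456.5 and 193.4 CPM, so the lower level in ENPP1CKO was not limited to the macrophages chosen here. Without the 10 cells of each library highest in Cxcl9, the sums in the MHC class II high cells were 435.6 and 191.5 CPM, so the control level rested in large part on these cells. In thinned cells Gbp2 was detected in 4.28% of control and 0.83% of ENPP1CKO MHC class II high cells, against 3.93% and 3.26% of collagen-rich barcodes, so no difference is read from these shares. Without thinning, Gbp2 was detected in 9.93% and 3.05% of the MHC class II high cells.

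**Figure D5:**
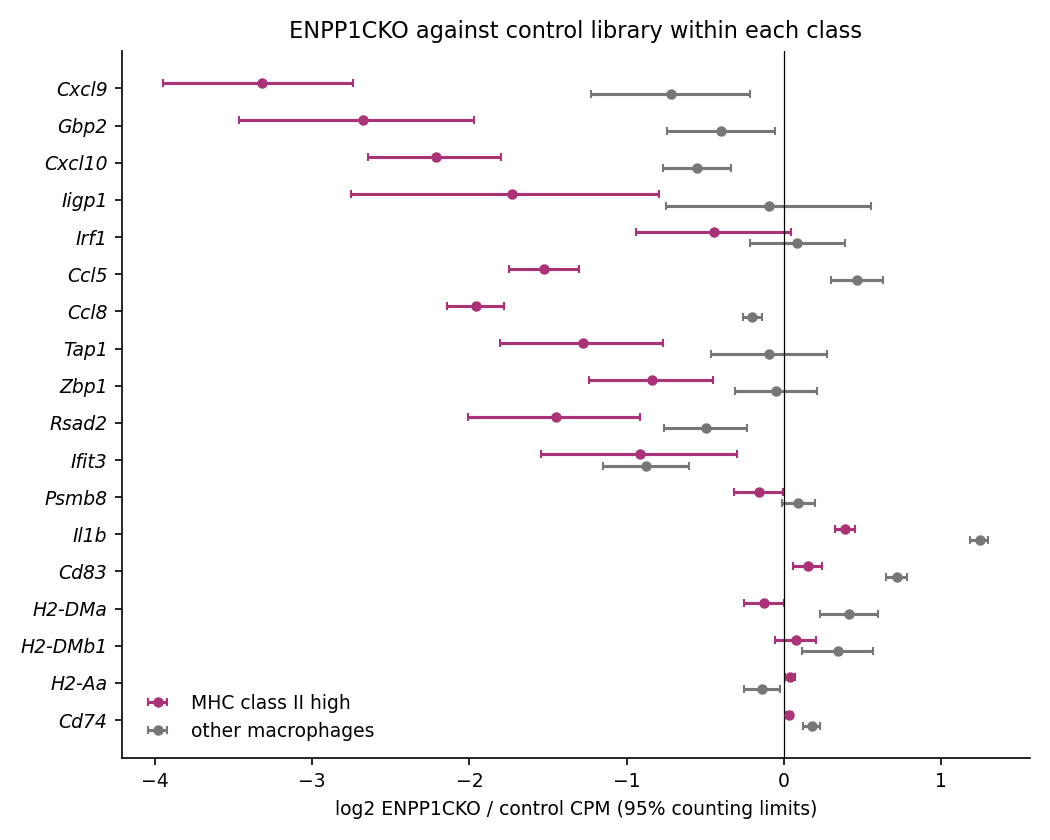
Log2 ratio of ENPP1CKO to control CPM (x axis) for 18 genes in MHC class II high and other macrophages, with 95% counting limits. These limits do not cover variation between animals or between cells. Cxcl9, Gbp2, Cxcl10, Ccl5 and Ccl8 were at -3.32 to -1.52 in the MHC class II high cells and at -0.71 to 0.47 in the other macrophages, and H2-Aa and Cd74 were at 0.04 and 0.03 in the former.

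Chemokines and class I presentation genes included further differences. Ccl5, a T cell and monocyte attractant, was at 386.5 CPM in control and 134.5 CPM in ENPP1CKO MHC class II high cells (log2 ratio -1.52, limits -1.75 to -1.30), with 437 of 606 control counts in 10 cells, whereas in the other macrophages it was at 106.2 and 146.8 CPM (0.47). After thinning, 7.81% of control and 6.64% of ENPP1CKO MHC class II high cells had a Ccl5 count, against 0.885% and 1.4% of collagen-rich barcodes, and without thinning the shares were 18.4% and 11.4%. In thinned control cells, Ccl5 was detected in 58.8% of those with a Cxcl9 count and 5.53% of those without. In ENPP1CKO cells the shares were 33.3% and 6.30%, from 10 control and 2 ENPP1CKO cells with both. The Ccl5 and Cxcl9 counts thus lay partly in the same cells. With the top 50% of macrophages taken, the log2 ratio of Ccl5 was -0.75 and that of Ccl8, described next, was -0.53. The monocyte chemokine Ccl8 was at 753.2 and 193.8 CPM (-1.96, limits -2.14 to -1.78), with 718 of 1181 control counts in 10 cells, against 883.2 and 769.3 CPM in the other macrophages (-0.20). In contrast, Ccl9 was higher in ENPP1CKO cells, at 482.1 and 696.2 CPM (0.53). Of 14 chemokines, 9 were higher and 5 lower, with a median of 0.18 against 0.48 in the other macrophages, and the median was -0.35 with the top 10% of macrophages taken. Of 10 class I genes, 9 were lower and 1 higher, with a median of -0.29 against -0.04, and the peptide transporter Tap1 was at 67.6 and 27.9 CPM (-1.28, limits -1.81 to -0.77), with ratios from -1.97 to -0.59 over the alternatives. Type I interferon targets numbered 13 lower and 1 higher of 14, with a median of -0.54 against -0.01, and included Rsad2 at -1.45 and Isg15 at -0.22, whose limits included 0 (-0.56 to 0.11).

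All 10 monocyte-derived genes compared were lower in ENPP1CKO MHC class II high cells, with a median of -0.51. In the other macrophages 8 of them were lower, with a median of -0.52, where 2778 of all 5028 genes compared were lower. Plac8 was at 84.2 and 14.2 CPM in control and ENPP1CKO cells (log2 ratio -2.57, limits -3.26 to -1.93), with 121 of the 132 control counts in 10 cells, and the ratio was -0.76 with the top 10% of macrophages taken. Chil3 was at 61.9 and 13.6 CPM (-2.18), with 79 of 97 control counts in 10 cells, and the monocyte antigen gene Ly6c2 at 33.2 and 17.2 CPM (-0.95, limits -1.66 to -0.27), with 45 of 52 in 10 cells and a ratio of -0.23 with the top 10% taken. Ccr2 was at 252.6 and 227.5 CPM, with a ratio of -0.15 and limits that included 0 (-0.36 to 0.06).

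The class II pathway was mixed. Of 7 loading genes compared, 3 were higher and 4 lower in the ENPP1CKO cells, with a median of -0.12. The protease gene Ctss had a log2 ratio of -0.46 (limits -0.50 to -0.42), against -0.57 in the other macrophages. H2-DMb1 had a log2 ratio of 0.07 (limits -0.06 to 0.20), H2-DMa -0.12 (-0.25 to 0.00) and Ciita -0.40 (-1.13 to 0.32). Il1b was 0.39 higher in ENPP1CKO MHC class II high cells on the log2 scale (limits 0.32 to 0.45), against 1.25 in the other macrophages (1.19 to 1.30), a difference of -0.86 (-0.94 to -0.77). Cd83 had 0.15 against 0.72. In the inflammatory and NF-kB list, 10 of 18 genes were higher and 8 lower in MHC class II high cells with a median of 0.08. In the other macrophages 18 of 18 were higher with a median of 0.39, where 2250 of all 5028 genes compared were higher. The gap in Il1b between the MHC class II high and the other macrophages was thus narrower in the ENPP1CKO library, where the other macrophages stood at 1681 CPM.

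Other genes were higher in ENPP1CKO MHC class II high cells. Stmn1, which encodes a tubulin-binding protein abundant in cycling cells, was at 67.0 and 153.5 CPM (log2 ratio 1.20, limits 0.86 to 1.54) and had -0.10 in the other macrophages. Of its ENPP1CKO counts, 143 of 259 came from 10 cells, and the ratio was 0.34 with the top 50% of macrophages taken and 0.38 without barcodes holding dendritic, B or T and NK cell counts. Of 5 cell cycle genes compared, 4 were higher and 1 lower, the latter being Pcna, a clamp of DNA replication (-0.69, limits -1.20 to -0.20). Among the higher genes, Top2a went from 0.71 to -0.29 with thinned cells, and Birc5 had 39 of 42 ENPP1CKO counts in 10 cells and went from 0.83 to -0.37 without such barcodes. Pf4 was at 345.7 and 591.3 CPM (0.77, limits 0.62 to 0.93), against 0.34 in the other macrophages. Several of the largest ratios were also present in cells of another type. The fatty acid carrier Fabp4 had 2.43 in MHC class II high cells, 1.41 in the other macrophages and 2.09 in collagen-rich barcodes, with 294 of 399 ENPP1CKO counts of the MHC class II high cells in 10 cells and ratios from 1.76 to 3.70 over the alternatives. Jund had -1.97, -1.43 and -1.71, and Taf10 had -1.58, -1.53 and -1.58. The glucocorticoid-induced gene Fkbp5 was at 11.5 and 39.1 CPM (1.77) and had 1.87 in the other macrophages. A list of cardiomyocyte genes summed to 8.93 and 43.85 CPM, from 14 and 74 counts (2.296, limits 1.46 to 3.235), and had 1.731 in the other macrophages. Mitochondrial transcripts were a median of 1.82% of counts in control and 2.42% in ENPP1CKO MHC class II high cells. With mitochondrial genes left out of CPM, Stmn1 had 1.21 and Fabp4 2.44. With barcodes of at least 2000 counts and at most 10% mitochondrial counts, they had 1.17 and 2.615. Beyond such alternatives, the part of cell quality in these differences was not tested.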

How the data were processed

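Single-cell RNA-Seq of nonmyocytes was analysed from 1 control and 1 ENPP1CKO library. The authors deposited raw counts per gene and barcode. Per the labels, the submitters' processing notes name mm10 and Cell Ranger, whose version was not given in the sources used here, and STAR 2.5.3a and rn6. The bulk libraries of cultured cells were not analysed here, and 0 columns of the tables used were left out. RefSeq gave symbols for 30934 of 31053 gene identifiers. The cells and gene lists were chosen with earlier results of these data known.

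Counts were summed per library and cell class and expressed as CPM with exact Poisson limits. Log2 ratios used genes with 50 or more counts and carried exact conditional binomial 95% limits. A gene was counted as higher or lower past 2-fold, and a count of 0 was given as a bound of 3 counts. Named genes were up to 12 in each direction with 200 or more counts between cell classes, 10 between libraries and 4 per list. Cells were thinned to 1000 counts for shares of cells with a count. In that step 6 control and 10 ENPP1CKO MHC class II high cells were shallower and left out. Scrublet (scanpy 1.11.5) marked 69 control (1.29%) and 151 ENPP1CKO (2.02%) barcodes as doublets, 2 and 5 of them MHC class II high, and they were kept in the values given. Summed depth was 1567980 and 1687679 counts in the MHC class II high cells. Calculations used Python 3.11.15, numpy 2.4.6, scipy 1.17.1, pandas 2.3.3 and matplotlib 3.10.9, and the ratios and limits were tested on simulated data. Alternatives varied the rule, depth, scaling, count minimum and doublets. Some genes are not reported here.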

Additional observations from a re-analysis of the deposited data

Results flagged for a closer look

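A few genes were higher in the MHC class II high than in the other macrophages of one library and lower in those of the other. Their counting limits excluded equality in both. Such limits cover counting error only, and since the class II share chose the cells, they describe the split and are not a test. The difference between the libraries was not tested, since each genotype was 1 library. Gbp2 had log2 ratios of 1.12 in control and -1.16 in ENPP1CKO, and Cxcl10 had 0.90 and -0.76. With the top 50% of macrophages taken, Gbp2 had -0.05 and Cxcl10 0.28 in ENPP1CKO. The control ratio of Gbp2 was 0.04 without the 10 cells highest in Cxcl9, and that of Cxcl10 was 0.02 with the top 10% of macrophages. The cell cycle inhibitor Cdkn1a had 0.21 and -0.16, and the glucocorticoid-induced gene Tsc22d3 had 0.26 and -0.29. The mitochondrial genes mt-Nd4 and mt-Nd5 ran the other way, at -0.14 and 0.0723 and at -0.22 and 0.20. Cdkn1a in ENPP1CKO was at 0.01 with the top 50%, -0.053 with TMM (trimmed mean) scaling and -0.055 with thinned cells. It was at -0.042 without barcodes holding dendritic, B or T and NK cell counts. In ENPP1CKO, mt-Nd4 was at -0.09 with the top 10% and -0.04 with thinned cells, and mt-Nd5 at 0.050 with thinned cells. In control, mt-Nd4 was at -0.027 with TMM scaling, -0.051 with the rule's genes left out of CPM and -0.044 with the top 50%.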

How the results depend on the processing

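No paired analysis was possible because each genotype was 1 library. The median log2 ratio of the interferon gamma targets between the libraries kept its sign under every alternative run, from -2.55 to -0.75, the latter with the top 50% of macrophages taken. Without the 10 cells of each library highest in Cxcl9 it was -1.07, Ccl5 was at -1.09, Gbp2 at -1.82 and Cxcl10 at -1.52, and Cxcl9, with 1 ENPP1CKO count left, could not be read. That alternative, equal weight for each cell and CPM without mitochondrial genes were chosen after seeing the data. Counts of genes past 2-fold moved with the settings, and the cause was not tested beyond the number of genes compared. The 40 genes higher in MHC class II high macrophages became 24 with thinned cells, 182 with a minimum of 1 count and 18 with a minimum of 200. The 117 lower genes became 401 with the top 10% taken, 33 with the top 50%, 199 and 43 with those minimums and 203 with cells weighted equally. The 23 genes higher in ENPP1CKO cells became 13 with the top 10%, 41 with the top 50%, 13 with thinned cells, 15 without barcodes holding dendritic, B or T and NK cell counts, and 739 and 5 with the minimums. The 57 lower genes became 28 with thinned cells and 917 and 16 with the minimums. The difference in the share of MHC class II high cells was 3.175 points without barcodes holding dendritic, B or T and NK cell counts and reached -1.27 with the top 50%. It was 5.18 points with the barcodes kept that the list including Ccl24 and Slpi removed. Of 7445 values for single genes, 398 had the other sign, among them Cd83 between libraries with the top 10% (-0.10) and H2-DMb1 with thinned cells (-0.13), as had 15 of 288 list medians. From past 2-fold, Mx1 between libraries was 0.71 with thinned cells. Between cell classes, Il12b in ENPP1CKO was -0.67 and Rgs5 0.22 with the top 10%, Jchain in ENPP1CKO was 6.08 with those barcodes kept and 3.41 thinned, and in control Ube2c was 0.27 without barcodes holding blood cell counts, S100a8 was 0.66 with those barcodes kept, 0.84 with the top 50% and 0.99 thinned, and Cdh5 was -0.70 without doublets and -0.34 with cells weighted equally. Depth limits Ciita, H2-DMb2 and Iigp1, which had under 50 counts per library in these cells.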

Other observations

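Receptors and enzymes of extracellular nucleotides and pyrimidines, the substrates of ENPP1 and what follows from them, formed a list of 18 genes. Summed over the list, the log2 ratio of ENPP1CKO to control was -0.135 in MHC class II high macrophages (limits -0.249 to -0.021) and 0.063 in the other macrophages. Of 10 such genes compared between the libraries, 3 were higher and 7 lower in ENPP1CKO cells, 2 of the lower ones past counting error, with a median log2 ratio of -0.15 against -0.06 in the other macrophages. Over all 5028 genes compared, 56.2% were lower, and 511 were lower past counting error. Of 7 p53 targets, 5 were higher and 2 lower, with a median of 0.07. Of 10 repair factors, 3 were higher and 7 lower, with a median of -0.18, and Igf1 was at 221.9 and 222.8 CPM. Glucocorticoid-induced genes were higher in 6 of 7, with a median of 0.41 against 0.23 in the other macrophages.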
